A study of Mus musculus with 2 samples.

Results

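The antiviral arm of the type I interferon response was followed through 43 genes chosen by name from a list of symbols: the receptor chains, the transcription factors of the pathway and the induced effectors, without guanylate-binding proteins, immunity-related GTPases or MHC genes. All 43 were found by symbol among the 15605 genes that the files list between them, and all 43 passed the minimum of 50 estimated counts in the higher library. RNA came from peritoneal macrophages of C57BL/6 mice aged 6 to 8 weeks, kept for 4 days with cells of the mouse mammary carcinoma line EO771. The donor mice were wild type or lacked Lgmn (lgmn-/-), the gene of the lysosomal protease legumain. Each genotype had 1 library, so no test across samples was possible, no p-value was computed, and higher and lower describe these libraries only. The sources used here do not give the number of mice per library, the exons of Lgmn that were removed or whether a membrane separated the cultures.

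Type I interferons bind a receptor of the chains Ifnar1 and Ifnar2, and the attached kinases Jak1 and Tyk2 phosphorylate Stat2. Stat2 and Irf9 belong to the factor ISGF3, which binds the interferon-stimulated response element (ISRE) in the promoters of antiviral genes. Interferon gamma signals through another receptor and acts at gamma-activated sites (GAS) near genes such as the guanylate-binding proteins and immunity-related GTPases. Macrophages express many antiviral genes at a tonic level without infection.

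The letters of the ISRE were looked for in the promoters of the 43 genes, since the ISRE is a feature that the choice of members did not use. RefSeq promoter windows of GRCm38.p6, from 250 bases before to 50 bases after an annotated start of a gene, were at hand for 33 of the 43 genes. The genes without an entry were Parp14, Parp9, Mx1, Mx2, Oas2, Usp18, Zbp1, Dhx58, Rtp4 and Ifi204. The ISRE core, read as GAAA, any 2 bases and GAAA, was searched on both strands with overlapping matches allowed. It was found in 15 of the 33 genes, a share of 45.5%, against 3.99% of the 27025 genes in the table. Stretches with the core are shown for genes whose values are given in detail below, 5′ to 3′ along the gene and outside its annotated span, with each core in capitals. A core on the opposite strand reads TTTC, any 2 bases and TTTC. In Bst2 the capitals also hold a GAS core, read as TTC, any 3 bases and GAA, that overlaps the ISRE core.
Isg15 (chr4:156200855-156200916, minus strand): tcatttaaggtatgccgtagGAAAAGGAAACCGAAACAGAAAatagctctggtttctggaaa
Ifit1 (chr19:34640765-34640833, plus strand): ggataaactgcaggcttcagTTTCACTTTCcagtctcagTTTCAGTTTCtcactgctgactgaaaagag
Oas1g (chr5:120887614-120887651, minus strand): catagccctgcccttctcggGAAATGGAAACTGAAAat
Rsad2 (chr12:26456543-26456592, minus strand): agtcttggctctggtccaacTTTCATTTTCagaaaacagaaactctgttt
Bst2 (chr8:71537567-71537628, minus strand): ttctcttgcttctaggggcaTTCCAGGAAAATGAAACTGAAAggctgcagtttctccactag
Stat2 (chr10:128270256-128270305, plus strand): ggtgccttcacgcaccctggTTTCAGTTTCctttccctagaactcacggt
Isg15, Oas1g and Bst2 showed runs of overlapping cores, and Ifit1 held 2 separate cores on the opposite strand. The first core lay 78 bases before the start in Isg15, 104 in Ifit1 and 18 in Oas1g. A match describes letters, not binding.

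The antiviral genes were well expressed in both libraries. FPKM, the unit in which genes can be compared per length, had a median of 48.3 over the 43 genes in wild type and of 55.04 in the knockout, while the median over all listed genes was 2.41 and 3.26. Every one of the 43 lay above the median of its library. Ifitm3, which blocks virus fusion in endosomes, had the highest level, with an FPKM of 2915 in wild type and 2678 in the knockout. Bst2 (tetherin), which holds budding virus at the cell surface, followed at 989 and 956. Isg15, a ubiquitin-like protein that is attached to other proteins, had 582 and 661, Irf7, a transcription factor that amplifies interferon production, had 540.45 and 574.98, and Rtp4 had 359 and 380.46. At the other end, Mx2 had 2.61 and 4.21 and Oas2 had 4.28 and 8.06. The order of the levels was nearly the same in both libraries, with a Spearman rho of 0.973 across the 43 genes, which share their libraries and are not independent. In bulk RNA, fewer cells of a type and less RNA per cell cannot be told apart. The 43 genes together held 1.06% of summed FPKM in wild type and 1.16% in the knockout.

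**Figure D1:**
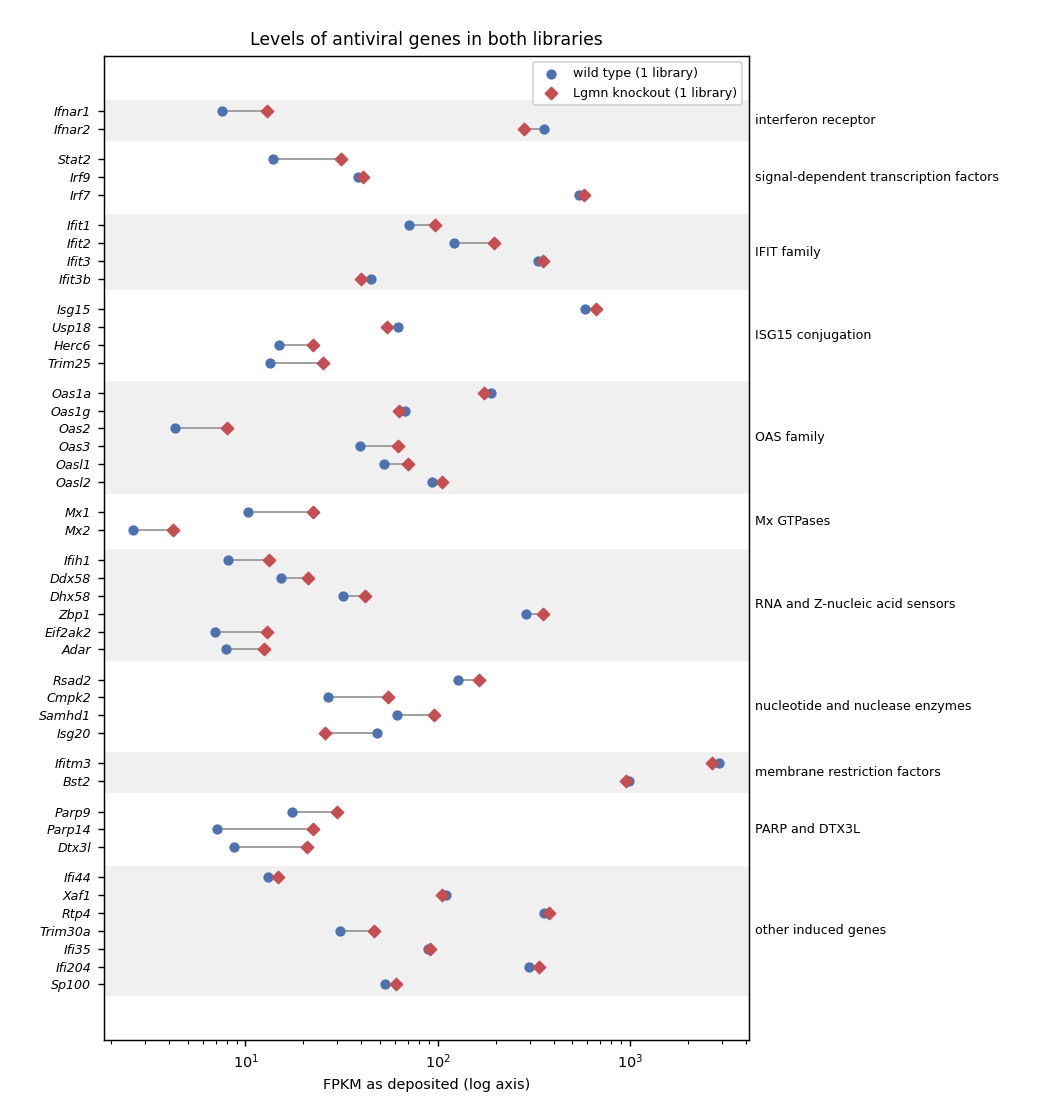
FPKM of each antiviral gene, on a log axis, in the wild type library (circles) and the Lgmn knockout library (diamonds), grouped by role, with 1 library per genotype. Levels run from 2.61 for Mx2 to 2915 for Ifitm3 in wild type, and the widest gaps between the libraries belong to Parp14, Dtx3l, Stat2, Mx1 and Cmpk2.

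Most of the antiviral programme differed little between the genotypes. A ratio here divides the knockout library's estimated counts by those of wild type, after scaling between libraries by the TMM method, and 1 scaled count was added before taking log2. Parp14 and Dtx3l were at least 2-fold higher in the knockout library, Isg20 was at least 2-fold lower, and 40 genes lay between. The 2 higher genes were 4.65% of the 43, beside 6.05% of all 9498 genes tested, and the 1 lower gene was 2.33%, beside 1.74%. At a threshold of 1.5-fold, 8 genes were higher, or 18.6%, beside 16.4% of all genes, and 1 was lower, or 2.33%, beside 6.39%. The shares were thus near those of the whole table, except that fewer members were at least 1.5-fold lower. The median log2 ratio of the 43 genes was 0.14, with 25 above 0 and 18 below, while the median of all genes tested was near 0 and 49.9% of them lay above 0. Scaling by library totals gave 5 genes at least 2-fold higher and 0 lower, and so did deposited FPKM, with Mx1, Stat2 and Cmpk2 added and Isg20 no longer past the threshold. Of all 9498 genes, 1036 were that much higher and 107 lower under library totals, and 936 and 102 under FPKM. After removal of a trend with transcript length, 0 genes passed 2-fold in either direction, beside 2.14% of all genes higher and 1.90% lower.

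That trend with length ran through the antiviral genes as through the rest of the table. All 12 members with transcripts of 4 kb or more had ratios above 0, with a median log2 ratio of 0.50, beside a median of 0.49 and 84.6% above 0 for the 2609 genes of that length. Of the 12 members under 2 kb, only Zbp1 lay above 0, and their median was -0.24, beside -0.28 and 18.6% above 0 for the 3056 genes of that length. Between 2 and 4 kb, 12 of 19 members lay above 0, with a median of 0.14, beside 0.02 and 51.3% above 0 for the 3833 genes of that length. The Spearman rho between ratio and length was 0.794 over the 43 genes and 0.609 over all 9498, as a description of these libraries. Long members also had low levels, with a rho of -0.751 between length and wild type FPKM. FPKM divides by length, so length enters both sides of that relation. Adjusted values below are log2 ratios from which the trend, a lowess curve over all genes tested, was subtracted. After subtraction the median of the 43 genes was 0.05, with 26 above 0, beside 48.9% of all genes.

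**Figure D2:**
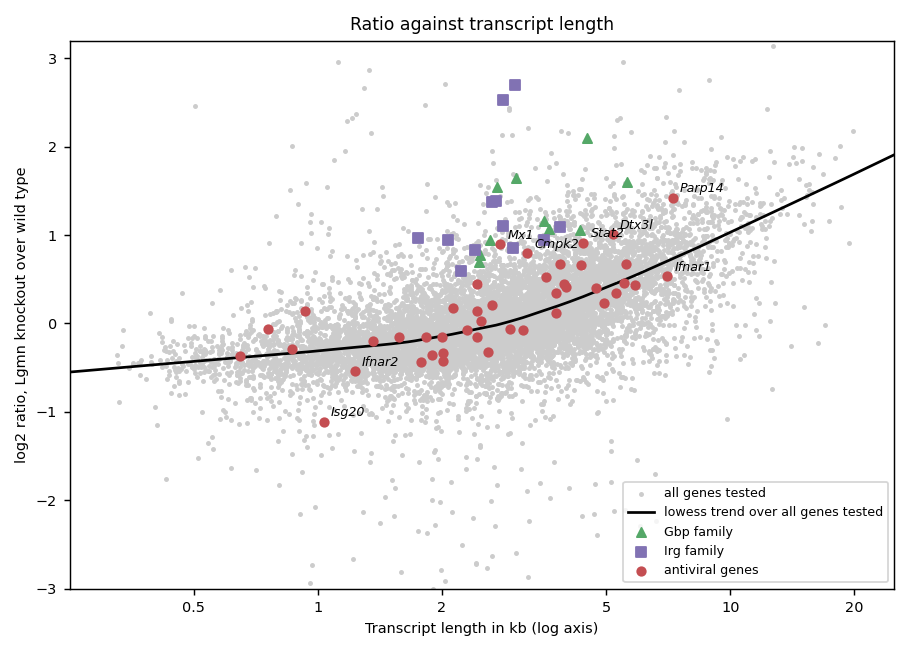
Log2 ratio (knockout over wild type) against transcript length in kb on a log axis for all genes tested (grey), the antiviral genes (red circles), the Gbp family (green triangles) and the Irg family (purple squares), with the lowess trend in black. Most antiviral genes follow the trend, while the Gbp and Irg genes lie above it, and 17 genes outside the plotted range are not shown.

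The receptor chains lay on opposite sides of 0. Ifnar1 (chromosome 16, 91485032 to 91510523 in GRCm38), whose transcript has 7025 bases, had 648 estimated counts in wild type and 1096 in the knockout, with an FPKM of 7.58 and 13.0. It was 1.45-fold higher, with a 95% interval of 1.32 to 1.60 that covers counting error only. Ifnar2 had 5119 and 4105 counts, with an FPKM of 357 and 281, and was 1.45-fold lower (1.39 to 1.51). Its length as deposited, averaged over the libraries, is much shorter, at 1228 bases, and need not be that of any 1 transcript. After length adjustment the log2 ratios were -0.17 for Ifnar1 and -0.27 for Ifnar2, from 0.54 and -0.54, so the opposite signs did not hold. By FPKM, which rests on the deposited length, Ifnar2 was far more abundant than Ifnar1 in both libraries.

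Of the transcription factors, Stat2 was higher by more than 1.5-fold, and Irf9 and Irf7 changed sign with the scaling. Stat2, the subunit of ISGF3 that carries the activation domain, had 746 counts in wild type and 1642 in the knockout, and an FPKM of 13.97 and 31.2. It was 1.89-fold higher (1.73 to 2.06), a log2 ratio of 0.92. It was 0.61 with length adjusted and 1.15 with library totals. Irf9, the DNA-binding subunit, had 1124 and 1180 counts and a log2 ratio of -0.15, and Irf7 had 11865 and 12428 counts and a log2 ratio of -0.15. Their adjusted values were -0.09 and 0.02, and deposited FPKM gave both a ratio above 0. The level of Irf7 exceeded that of Irf9 and Stat2 in both libraries.

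The ADP-ribosyl transferases Parp14 and Parp9 and the partner Dtx3l, which lie close together in the genome, all had ratios above 0. Parp14 (Entrez gene 547253), which adds single ADP-ribose units to proteins, had 627 counts in wild type and 1962 in the knockout, and an FPKM of 7.11 and 22.6. It was 2.68-fold higher (2.45 to 2.94), and it was the largest ratio of the 43. Dtx3l (Entrez gene 209200), a ubiquitin ligase that works as a complex with Parp9, had 551 and 1297 counts, an FPKM of 8.76 and 20.9, and was 2.02-fold higher (1.83 to 2.24), an interval that spans the threshold. Parp9 had 756 and 1270 counts, an FPKM of 17.5 and 29.9, and was 1.44-fold higher (1.32 to 1.58). After length adjustment the log2 ratios were 0.69 for Parp14, 0.58 for Dtx3l and 0.37 for Parp9, from 1.42, 1.01 and 0.53, in the same order. All 3 lie on chromosome 16, from 35831892 to 35972621. The annotated spans of Parp9 and Dtx3l overlap by 558 bases, and 54996 bases separate Dtx3l from Parp14. Reads of the overlap cannot be assigned where strand is unknown, and 9.09% of the 50-base stretches of Parp9 transcripts also occur in Dtx3l transcripts.

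The enzymes of nucleotides and nucleic acids went both ways. Cmpk2, a mitochondrial nucleotide kinase, had 1041 counts in wild type and 2110 in the knockout, an FPKM of 26.8 and 55.04, and was 1.74-fold higher (1.61 to 1.87). Its log2 ratio was 0.80, and 0.72 with length adjusted. Its neighbour Rsad2, which encodes viperin and lies 12.7 kb away on chromosome 12, had 5869 and 7437 counts and was 1.09-fold higher (1.05 to 1.13), with a length-adjusted log2 ratio of -0.07. Samhd1, which degrades the building blocks of DNA, had 2966 and 4587 counts and a log2 ratio of 0.41, or 0.17 when adjusted. Isg20, an exonuclease that degrades RNA (Entrez gene 57444, chromosome 7, 78913396 to 78920396), was the one gene past 2-fold in the other direction. It had 583 counts in wild type and 314 in the knockout, an FPKM of 48.3 and 25.9, and was 2.16-fold lower (1.88 to 2.49). Its log2 ratio was -1.11, -0.81 after length adjustment and -0.87 with library totals, so it stayed the lowest of the 43 under both.

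The Mx genes were higher by less than 2-fold. Mx1, a dynamin-like GTPase for which C57BL/6 mice carry a defective allele, had 342 counts in wild type and 742 in the knockout, an FPKM of 10.3 and 22.5, and was 1.86-fold higher (1.64 to 2.12). Its transcript is of middle length, and its log2 ratio of 0.89 became 0.90 after length adjustment, the highest adjusted value of the 43. Mx2 had 76 and 121 counts, the fewest of all members, and its interval of 1.02 to 1.84 was the widest. Its log2 ratio was 0.45, or 0.51 when adjusted.

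Within the IFIT family, whose proteins bind foreign RNA, and the OAS family, whose enzymes make the oligoadenylates that activate RNase L, ratios lay on both sides of 0. Ifit2 had 5787 and 9221 counts and a log2 ratio of 0.45, and Ifit1 had 2255 and 3027 counts and a log2 ratio of 0.20, which were 0.23 and 0.23 after length adjustment. Ifit3 had 7958 and 8365 counts, with a log2 ratio of -0.15, and Ifit3b had 1092 and 950, with one of -0.42. When adjusted they were -0.01 and -0.28. Of the 50-base stretches of Ifit3, 51.2% also occur in Ifit3b, so the division of reads between them rests on an estimate. Their sum was 1.13-fold lower (1.10 to 1.17). Oas1a and Oas1g share 57.6% of the stretches of Oas1a. They had 4267 and 1631 counts in wild type, 3891 and 1502 in the knockout, and log2 ratios of -0.35 and -0.34, or -0.19 and -0.20 when adjusted, and their sum was 1.28-fold lower (1.23 to 1.32). Oas2 was the OAS gene with the highest ratio, at 201 and 373 counts and 1.59-fold higher (1.34 to 1.90). Its log2 ratio was 0.67, or 0.46 when adjusted. Oas3 had a log2 ratio of 0.41, Oasl1 one of 0.17 and Oasl2 one of -0.08, and after adjustment 0.04, 0.29 and -0.14.

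The 6 genes grouped as RNA and Z-nucleic acid sensors, with the editing enzyme Adar among them, all had ratios above 0. After length adjustment 3 of the 6 remained above 0. The OAS genes, on both sides of 0, and Ifi204, below 0, were grouped elsewhere. Eif2ak2 (PKR), a kinase that stops translation on double-stranded RNA, had 366 counts in wild type and 673 in the knockout and was 1.58-fold higher (1.39 to 1.80). Its log2 ratio was 0.66, and 0.36 after adjustment. Ifih1 (MDA5) and Ddx58 (RIG-I), helicases that recognise viral RNA, had log2 ratios of 0.46 and 0.23, or -0.03 and -0.17 when adjusted. Their relative Dhx58 (LGP2) had 0.14 and 0.20. Adar, which edits adenosine to inosine in double-stranded RNA, had 0.43 and -0.11. Zbp1, which binds nucleic acid of the Z form and can start necroptosis, had 3049 and 3915 counts, and its log2 ratio of 0.14 became 0.46 with length adjusted. The deposited length of Zbp1, averaged over the libraries, was 932 bases and need not be that of any 1 transcript. By that length Zbp1 was the one member under 2 kb above 0.

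Among the genes of the Isg15 system, Trim25 and Usp18 lay farthest apart. Trim25, a ubiquitin ligase that acts on RIG-I, had 909 counts in wild type and 1695 in the knockout and was 1.60-fold higher (1.47 to 1.74), a log2 ratio of 0.68, or 0.18 when adjusted. Usp18, which removes Isg15 from proteins and dampens the receptor, had 1317 and 1138 counts and was 1.35-fold lower (1.25 to 1.46), a log2 ratio of -0.43, or -0.25 when adjusted. Isg15 itself had 5121 and 5738 counts and a log2 ratio of -0.06, or 0.30 when adjusted. Herc6, the ligase that attaches Isg15 in mouse, had 0.34 and -0.11.

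Of the surface and remaining induced genes, none passed 1.5-fold. Ifitm3, with 21801 and 19752 counts, and Bst2, with 10035 and 9568, had log2 ratios of -0.36 and -0.29. After length adjustment they were 0.02 and 0.05. Trim30a had a log2 ratio of 0.34, Sp100, a nuclear body protein, one of 0.03, Ifi44 -0.06, Ifi204, a cytosolic DNA-binding protein, -0.07, Rtp4 -0.16, Ifi35 -0.20 and Xaf1 -0.32. After length adjustment these 7 ranged from -0.28 for Xaf1 to 0.15 for Trim30a.

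**Figure D3:**
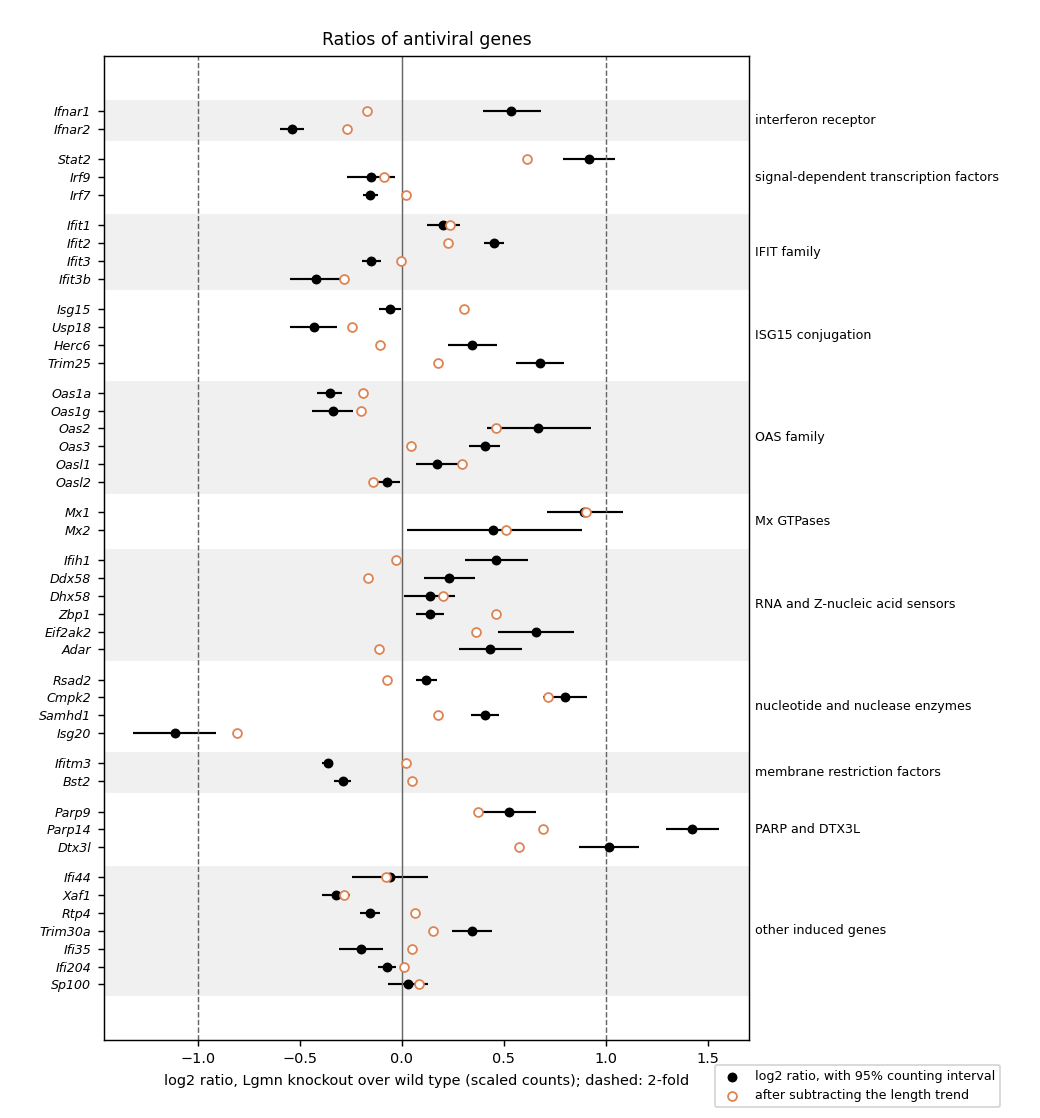
Log2 ratio (knockout over wild type, scaled counts) of each antiviral gene with its 95% counting interval (black) and after subtraction of the length trend (open orange circles), grouped by role, with dashed lines at 2-fold. Parp14 at 1.42 and Dtx3l at 1.01 lie above the upper line and Isg20 at -1.11 below the lower one, and no open circle lies outside the lines.

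Among the 33 members with a window, the promoter letters did not separate genes by ratio. Parp14, with the largest ratio of the 43, and Mx1, with the largest adjusted value, had no window and could not be read. The 15 genes with an ISRE core in the window had a median log2 ratio of 0.12, or 0.02 when adjusted. The 18 genes without one had 0.10 and -0.03. The latter include Dtx3l and Isg20, and no match says only that these letters are not in the window.

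The ligands of the pathway were almost undetected. Of 20 type I and type III interferon genes looked for, Ifnb1 had 1 estimated count in each library and Ifnz 0.75 in wild type, and the other 18 were listed in neither file. Of 10 genes of receptor signalling and its feedback, 1 passed 2-fold upward and 0 downward, beside 6.05% and 1.74% of all genes. Their median log2 ratio was 0.48, or 0.30 when adjusted. The gene past 2-fold was Socs1, a feedback inhibitor of JAK kinases that answers to several cytokines, with 37 counts in wild type and 227 in the knockout, 5.26-fold higher (3.71 to 7.67), with an adjusted value of 2.64. The kinase Tyk2 was 1.93-fold higher (1.57 to 2.38), and Socs3, another feedback inhibitor, had 103 and 223 counts and was 1.86-fold higher (1.46 to 2.37). Their log2 ratios were 0.94 and 0.89, or 0.56 and 0.90 when adjusted. Of 13 genes of viral sensing and interferon induction tested, 0 were past 2-fold upward or downward, and their median was 0.23, or 0.18 when adjusted. Ikbke, a kinase that activates interferon regulatory factors, was 1.73-fold higher (1.49 to 2.01), Traf3, an adaptor, 1.67-fold (1.24 to 2.26) and Tlr3, a receptor for double-stranded RNA, 1.59-fold (1.31 to 1.93). Their adjusted values were 0.71, 0.01 and 0.38, so Traf3, with a long transcript, lay on the length trend.

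A further list of antiviral interferon-stimulated genes also had counts near those of all genes. Of the 48 that could be tested, 3 passed 2-fold upward and 1 downward, which is 6.25% and 2.08%, beside 6.05% and 1.74% of all genes. Their median log2 ratio was 0.19, or 0.16 when adjusted, and with length adjusted 1 and 0 passed. At 1.5-fold with length adjusted, 7 were higher, or 14.6%, beside 9.30% of the 43 and 7.74% of all genes. Helz2, a helicase with a transcript of 10124 bases, was 3.66-fold higher (3.11 to 4.32). Its log2 ratio was 1.86, or 0.82 when adjusted. Trim56, a ubiquitin ligase, had 19 and 78 counts and was 3.52-fold higher (2.11 to 6.16), with an adjusted value of 1.60. Ifitm6, a relative of Ifitm3, was 2.56-fold lower (2.10 to 3.13), with an adjusted value of -0.93.

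The interferon-inducible GTPases had larger ratios than the antiviral genes. All 10 Gbp genes and all 12 Irg genes tested were at least 1.5-fold higher, with and without length adjustment, beside 8 of the 43 antiviral genes without it and 4 with it. With length adjusted, 7.74% of all genes were that much higher and 6.33% that much lower, and the 1 antiviral gene lower was Isg20. The medians were 1.12 for Gbp and 1.03 for Irg, and 0.998 and 1.09 after adjustment, beside 0.14 and 0.05 for the antiviral genes. At 2-fold, 7 Gbp and 6 Irg genes were higher and 0 lower, and 8 of 14 genes of interferon gamma signalling, with 0 lower. Of all 9498 genes, 6.05% passed 2-fold upward and 1.74% downward. The 3 largest log2 ratios of the Gbp list were those of Gbp4, 4.31-fold higher (3.76 to 4.94), Gbp5 at 3.13-fold (2.88 to 3.40) and Gbp7 at 3.03-fold (2.77 to 3.32), with adjusted values of 1.78, 1.60 and 1.09. Those of the Irg list were Iigp1 at 6.52-fold (5.65 to 7.55), Tgtp1 at 5.81-fold (4.67 to 7.28) and Gm12250 at 2.62-fold (2.30 to 2.99), with adjusted values of 2.66, 2.52 and 1.41. Those of the interferon gamma list were the chemokines Cxcl10 at 7.90-fold (5.78 to 11.0) and Cxcl9 at 5.48-fold (3.61 to 8.63), adjusted 3.24 and 2.39, and Socs1, given above. Tgtp1 is known to have a near-identical copy, Tgtp2, which makes its value uncertain. With 1 library per genotype the difference between the lists was not tested. Ifng, named after its values were seen, had 10 counts in wild type and 63 in the knockout, beside 1 and 1 for Ifnb1.

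**Figure D4:**
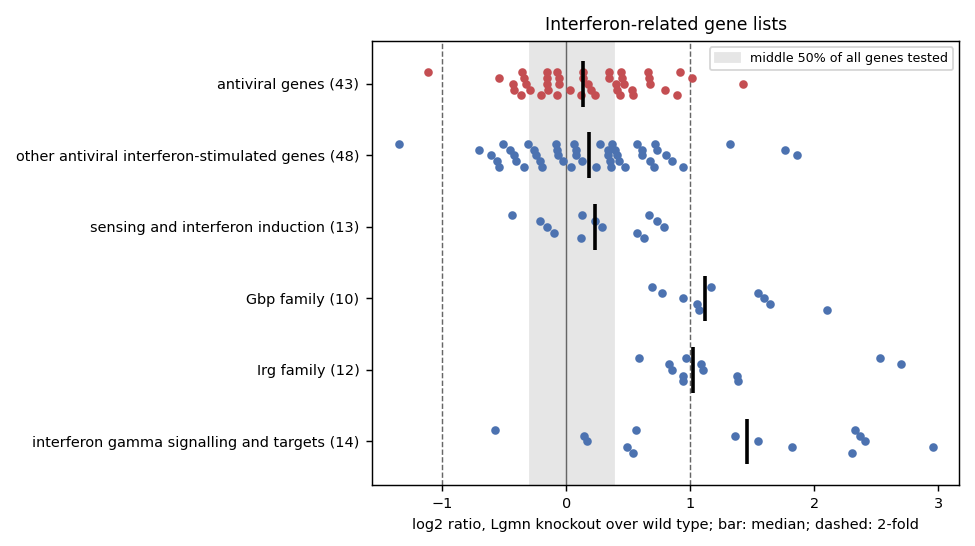
Log2 ratio (knockout over wild type) of every gene tested in 6 lists, 1 point per gene, with the median as a black bar, the middle 50% of all genes tested as a grey band and dashed lines at 2-fold. The antiviral genes spread around a median of 0.14, and all Gbp and Irg genes lie to the right of the band.

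The promoter windows of the GTPases also held ISRE cores, in 5 of 5 Gbp genes and 7 of 10 Irg genes with an entry. A GAS core anywhere in the window was found in 11 of 33 antiviral genes, 2 of 5 Gbp genes and 5 of 10 Irg genes, against 9.55% of all genes in the table. The further list of antiviral genes had a GAS core in 4 of 47 genes with an entry, or 8.51%, and an ISRE core in 26 of 47, or 55.3%. In 5 Irg genes a GAS core lay within 20 bases of an ISRE core, against 2 of 33 antiviral genes, Bst2 and Ifitm3, 0 of 5 Gbp genes and 0.189% of all genes in the table. The further list of antiviral genes had this pairing in 2 of 47. It was looked for after the values were seen. In the stretches below, from Irg genes, the first run of capitals is the GAS core and the second the ISRE core.
Igtp (chr11:58199491-58199551, plus strand): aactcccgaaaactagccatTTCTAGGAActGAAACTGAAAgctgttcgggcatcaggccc
Irgm2 (chr11:58214882-58214942, plus strand): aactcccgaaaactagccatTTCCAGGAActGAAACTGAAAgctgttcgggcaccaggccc
Tgtp2 (chr11:49064253-49064313, minus strand): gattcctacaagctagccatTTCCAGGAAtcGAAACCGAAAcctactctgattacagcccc
The stretches of Igtp and Irgm2 differed at 2 of 61 bases. Of the stretches shown earlier, those of Isg15 and Ifit1 hold ISRE cores only, while that of Bst2, with a log2 ratio of -0.29, also holds the pairing. Whether the pairing goes with the ratios was not tested.

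Markers of the cell types that the cultures could hold were read in both libraries. The library labels matched the deletion, with 23550 counts of Lgmn in wild type and 426 in the knockout, and depth was 11885784 and 11740202 estimated counts. All 10 macrophage markers were listed, led by Lyz2 and Cd68, with a summed FPKM of 19407 and 17552. Their median log2 ratio was 0.22, 5 lay above 0 and Mertk passed 2-fold, at 2.35-fold higher (2.03 to 2.73), while Cd68 had a log2 ratio of -0.70 and Lyz2 one of -0.32. The 8 markers of large peritoneal macrophages summed to 26.6 and 38.9, most of it from Cd93 at 13.99 and 24.5 and Icam2 at 10.05 and 11.1. The defining markers were near 0, with Gata6 at 0.60 and 0.74 and Timd4 at 0.76 and 0.62, and of 3 tested F5 passed 2-fold upward, at 20 and 66 counts. Plasmacytoid dendritic cells are strong producers of type I interferon. Their marker Siglech was listed in neither file, Ccr9 had 0 and 2 counts, and nearly all of that list's FPKM came from Bst2 and Irf7, which belong to the 43. Of 12 T and NK cell markers, 11 were listed, with a summed FPKM of 159 and 303. Most of it came from Gzma, at 91.25 and 164.26, and Gzmb, at 46.17 and 89.41, which were 1.52-fold and 1.64-fold higher. All 7 tested lay above 0, beside 49.9% of all genes, with a median log2 ratio of 0.71, or 0.96 when adjusted. Of these 7, 3 passed 2-fold upward, beside 6.05% of all genes, among them Klrd1 at 29 and 139 counts. Cd3e, not tested, had 2 and 7 counts. Trac was listed in neither file. For 8 fibroblast and mesothelial markers the sum was 27.7 and 8.18, and all 5 tested were at least 2-fold lower, beside 1.74% of all genes. For 8 epithelial markers the sum was 5.64 and 1.22, most of it in wild type from Krt19, with 67 and 4 counts and the only one tested, and Epcam had 1 and 2 counts. Conventional dendritic cell markers summed to 0.78 and 3.2, with Flt3 listed in neither file. Clec9a, the only marker of that list tested, had 13 and 74 counts. It was 4.88-fold higher (2.69 to 9.60), with an adjusted value of 2.13. Neutrophil markers summed to 83.7 and 107.5, almost all from S100a8, and B cell markers to 1.4 and 2.51. The part of these cells in the ratios of the antiviral genes was not tested.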

How the data were processed

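Macrophage RNA was read on a BGISEQ-500 sequencer, as the labels' protocols state, in 1 wild type and 1 Lgmn knockout library, grouped by the genotype label. For each Entrez gene the authors deposited an estimated count and an FPKM value, per the file headers. The estimated counts carry no scaling between libraries, and FPKM is scaled by the authors to transcript length and mapped fragments, as its name in the file headers says. The submitters' processing notes list HISAT2, Bowtie2, RSEM and mm10, with no roles. A gene missing from a file was taken as 0 there. The sources used here give neither strand handling nor read length.

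Symbols came from RefSeq for GRCm38.p6, which matched 15561 of 15605 identifiers. Counts were rounded and scaled with TMM factors (edgeR 4.0.16, R 4.3.3) of 0.921 for wild type and 1.09 for knockout. Genes reaching 50 counts in at least 1 library were compared at 2-fold and 1.5-fold. Each ratio's 95% interval was converted from the exact Clopper-Pearson interval for the knockout fraction of its counts, and these reads, which carry no molecular identifier, cannot be taken as independent molecules. The length trend was a lowess curve with a span of 0.3 (statsmodels 0.14.6). Transcript length was the mean of the lengths deposited for each gene in both libraries. Shared stretches were 50-base words of GENCODE vM21 transcripts, on both strands. Members, lists, tests and alternatives were chosen with earlier results of these data known. The rule for named genes took all members, in full those past 1.5-fold, the receptors, near-identical copies and the 5 of highest wild type FPKM, and of each other list the 3 largest ratios. The calculation was tested on simulated data.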

Additional observations from a re-analysis of the deposited data

How the results depend on the processing

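No paired analysis was possible because each genotype had 1 library, and leaving out a replicate was not possible for the same reason. Among the alternatives, DESeq2 size factors (DESeq2 1.42.0), minimums of 10, 200 or no counts and pseudocounts of 0.5 and 5 gave the same counts of 2 members at least 2-fold higher and 1 lower. Library totals gave 5 higher and 0 lower with a median log2 ratio of 0.38, beside 1036 and 107 of all 9498 genes. Deposited FPKM with 0.1 added gave 5 and 0 with a median of 0.38, beside 936 and 102. These scalings moved the median of all genes to 0.24 and 0.23, so the members stood 0.14 above it under both, as under TMM. With the length trend subtracted, 0 members were higher and 0 lower, and the members' median stood 0.06 above that of all genes. A threshold of 1.5-fold gave 8 higher and 1 lower. Of all genes past 2-fold, 77.7% were higher under TMM (575 higher and 165 lower), 90.6% under library totals (1036 and 107), 90.2% under FPKM, 53.0% with the length trend subtracted (203 and 180), 67.9% with a minimum of 10 counts (921 and 436), 80.3% with one of 200 (273 and 67) and 48.8% with no minimum (1458 and 1531). What causes the trend with length was not tested. Over the alternatives, 26 members kept their sign, 19 of them above 0 and 7 below, and 17 changed it under at least 1. With 1 library per genotype the spread between mice is unknown, and Mx2, with 76 and 121 counts, had the least precise ratio.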
